A study of Drosophila melanogaster with 17 samples.

Results

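Narrow Cuff peaks are the sites in the ovary genome at which the protein Cutoff (Cuff) was called over a stretch shorter than 1000 bp. They were chosen by width alone, as end minus start in the authors' list, on any chromosome or scaffold, and they number 595 of 937 peaks. The list came from ChIP-seq of Drosophila melanogaster ovaries from females aged 2 to 4 days, with 2 Cuff ChIP libraries and 3 input libraries that had no immunoprecipitation by the labels and the design text. The protocol text speaks of triplicates, and the list does not say how many stand behind it. Cuff was pulled down with GFP antibodies in a transgenic line that expresses a Cuff-EGFP fusion, so the peaks are those of the tagged protein. The labels give genotype wt for all 5 of these libraries, ovary as their tissue and about 30 females for each replicate, and do not say whether the inputs came from the same transgenic line. The series also holds 6 RNA-seq and 6 Pol2 ChIP-seq libraries of wild-type and cuff mutant ovaries, which were not used here because their tables name genes without positions. Only 1 list was deposited for the ChIP libraries, so no peak has a value per library and none carries a spread between replicates. Depth per library is unknown.

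Cuff forms a complex with Rhino and Deadlock on chromatin in germline nuclei. There the complex sits on dual-strand piRNA clusters, which are stretches of transposon remnants transcribed from both strands into precursors of piRNAs, and it lets transcription run through sites where splicing or termination would otherwise act. Clusters of this kind lie mostly near centromeres and in other heterochromatin, and the best known of them, 42AB, lies near the base of arm 2R. No annotation of dm3, the build named in the submitters' processing notes, was used here. Peaks are therefore given by arm and position in dm3, none is assigned to a gene, a transposon or a piRNA cluster, and no sequence is shown.

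The narrow peaks covered 355 kb, 40.6% of the 874 kb under all peaks. Their width ran from 206 to 995 bp, with a median of 573 bp and quartiles at 428 and 770 bp. Of all peaks, 121 were 400 to 499 bp wide, more than in any other 100 bp step, against 29 from 200 to 299 bp and 62 from 900 to 999 bp. No break lay at the limit, where the step from 1000 to 1099 bp held 64 peaks.

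**Figure D1:**
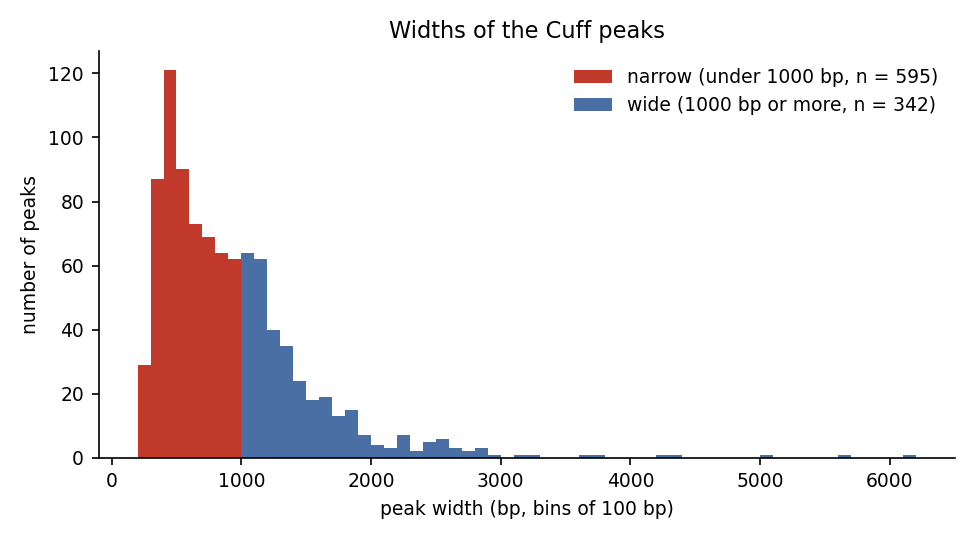
Number of Cuff peaks (vertical axis) by width in steps of 100 bp (horizontal axis, bp), with the 595 narrow peaks in red and the 342 wide peaks in blue. The highest bar, 121 peaks, stands at 400 to 499 bp, and the bars on either side of 1000 bp are nearly level, with 62 and 64 peaks.

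The narrow peaks closest to the limit were 995 bp (3R, 20475449 to 20476443), 992 bp (X, 17195010 to 17196001), 990 bp (3L, 9756390 to 9757379), 988 bp (2L, 1650772 to 1651759) and, for a pair of equal width, 986 bp wide (2R, 14526434 to 14527419, and 3R, 1510839 to 1511824). Their scores, the authors' value per peak whose statistic is not stated, were 40.6, 43.2, 65.6, 61.0, 52.3 and 43.4. The 5 peaks just past the limit, from 1000 to 1005 bp wide, had scores of 104, 146, 84.3, 59.1 and 185. So few peaks cannot show a step in score at the limit, and none was tested. A little farther out, scores lay both under and above 100 on each side. At the other end, the narrowest narrow peak covered 206 bp on U (8700804 to 8701009) with a score of 74.9. The next narrowest covered 241 bp each, on 2R (2547254 to 2547494) with a score of 44.4 and on X (1236014 to 1236254) with a score of 43.3.

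Scores of narrow peaks ran from 40.2 to 276 around a median of 50.4, with quartiles at 44.2 and 64.3. The list starts at 40.2, and many narrow peaks sat close to this lower edge: 293 of 595 (49.2%, exact 95% binomial interval 45.2 to 53.3) scored under 50. Scores above 100 were reached by 49 narrow peaks (8.24%, interval 6.15 to 10.7). The wide peaks had a median score of 65.4, with 78 of 342 under 50 and 74 above 100. Width and score come from the same comparison of ChIP with input that made the list, so this difference is a description and was not tested. Intervals here cover counting error only.

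Within the narrow class, score went weakly with width. Spearman's rho across the 595 peaks was 0.22, as a description over peaks that share the same libraries. The 116 peaks of 200 to 399 bp had a median score of 45.9 and the 211 of 400 to 599 bp one of 49.4. For the 142 peaks of 600 to 799 bp the median was 53.4, and for the 126 of 800 to 999 bp it was 56.1. Scores above 100 did not follow that order, since the class from 600 to 799 bp held the most of them, 24 peaks or 16.9%, and the widest class held 12, or 9.52%.

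**Figure D2:**
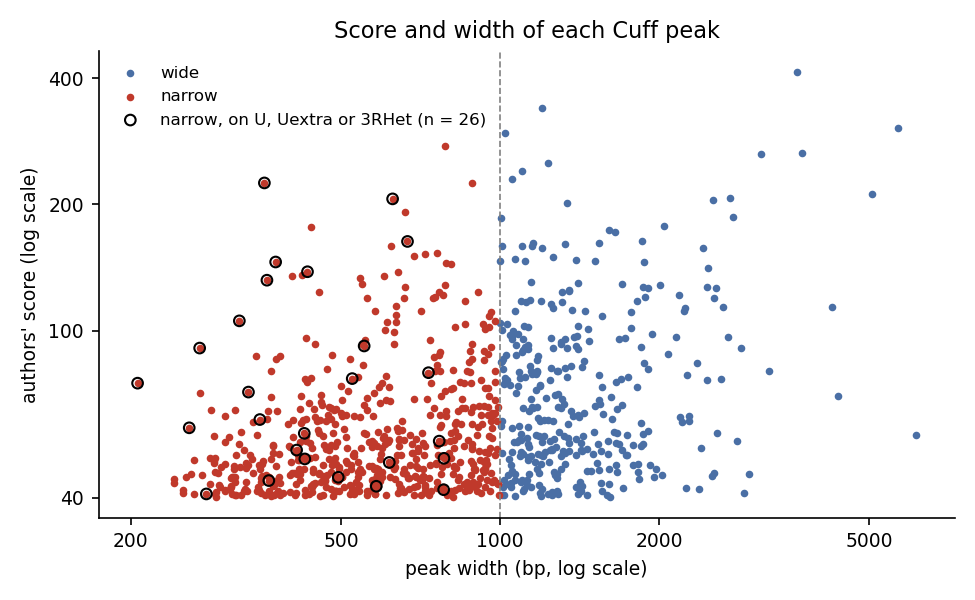
Authors' score (vertical log axis) against width in bp (horizontal log axis) for every Cuff peak, narrow in red and wide in blue, with the limit of 1000 bp dashed. Black rings mark the 26 narrow peaks on U, Uextra or 3RHet; 7 of them score above 100, and they include the narrowest peak of the list, at 206 bp.

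Of the 10 peaks with the highest scores in the whole list, 1 was narrow. Of the top 50 peaks 15 were narrow, of the top 100 it was 36, and of the top 200 it was 78, against 63.5% of the list. The highest narrow score, 276, at rank 5 of the list, belonged to a peak of 785 bp on X (15604035 to 15604819). Its nearest neighbour was a narrow peak 8820 bp away with a score of 42.1, and its nearest wide peak lay 142 kb away. A peak of 358 bp on U (5295478 to 5295835) scored 225, and one of 884 bp on 3L (14266974 to 14267857) also scored 225. The peak on 3L stood alone, 82.3 kb from any other.

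The other 7 of the 10 highest narrow peaks were a mix of isolated and grouped sites. On U, a peak of 626 bp (5771142 to 5771767) scored 206 and lay 625 bp from a wide peak, and another of 668 bp (5299296 to 5299963) scored 163. On 2R, a peak of 660 bp (5301666 to 5302325) scored 192 at 4274 bp from a wide peak. The remaining 4 were each over 35 kb from any other peak. They lay on 3R (15700684 to 15701122, 439 bp, score 177), on 3L (11579753 to 11580374, 622 bp, score 159, and 19854204 to 19854964, 761 bp, score 153) and on 2L (15762157 to 15762878, 722 bp, score 152). In all, 22 of the 49 narrow peaks with a score above 100 had no other peak within 20 kb, beside 339 of all 595 narrow peaks (57.0%).

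The 5 large arms held 564 of the 595 narrow peaks. By arm there were 126 on 2R, 119 on 3R, 109 on X, 107 on 3L and 103 on 2L. Taken over the stretch from the first to the last peak of each arm, this was 6.08 narrow peaks per Mb on 2R, 5.02 on X, 4.62 on 3L, 4.53 on 2L and 4.32 on 3R. Arm X held 18.3% of the narrow peaks (interval 15.3 to 21.7) and 24.9% of the wide ones (interval 20.4 to 29.8), the largest gap between the classes on an arm. These intervals overlap, which does not show that the shares are equal, and the difference was not tested. Median widths by arm ran from 513 bp on 3L to 607 bp on 2L, and median scores from 47.7 on 2L to 53.1 on X.

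**Figure D3:**
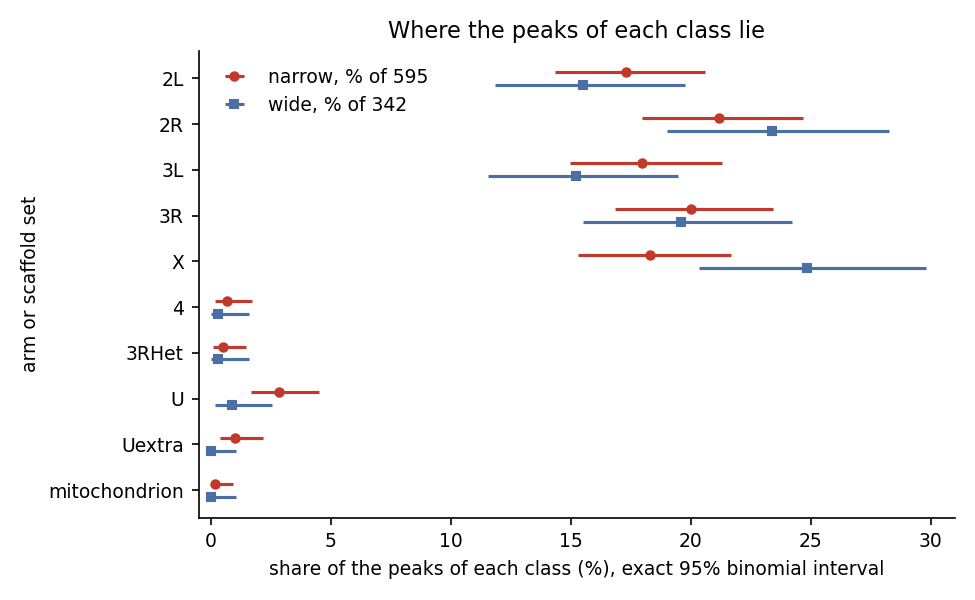
Share of the 595 narrow peaks (red circles) and of the 342 wide peaks (blue squares) on each arm or scaffold set of dm3, in percent with exact 95% binomial intervals. The intervals of both classes overlap on every arm and scaffold set drawn, which does not show that the shares are equal. U holds 2.86% of the narrow and 0.877% of the wide peaks.

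Along the arms, narrow peaks were spread over their whole length. Each of the 55 complete stretches of 2 Mb held at least 3 of them, with a median of 10. The stretch from 2 to 4 Mb of 2R stood out with 31 narrow and 24 wide peaks, while no other stretch held more than 15 narrow peaks. The sparsest was 14 to 16 Mb on 2L, with 3 narrow and 2 wide peaks. On 3L the stretch from 12 to 14 Mb held 10 narrow peaks and 0 wide ones, and at the tip of 2L the first 2 Mb held 13 narrow peaks and 1 wide peak. Chromosome 4, small and largely heterochromatic, had 4 narrow peaks with scores from 42.4 to 46.9.

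Most of the remaining sites lay on scaffolds that dm3 keeps apart from the arms. U and Uextra are strings of unplaced sequence, much of it repeats, and 3RHet is heterochromatin mapped to arm 3R. Because pieces are strung together, a distance on U or Uextra need not be a distance in the chromosome. No source used here says how reads that match several places were treated, which bears most on these scaffolds.

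These 3 scaffold sets held 26 narrow peaks, 4.37% of the class (interval 2.87 to 6.34), and 4 wide peaks, 1.17% of theirs (interval 0.320 to 2.97). U carried 17 of the 26, Uextra 6 and 3RHet 3. Peaks here were shorter and scored higher than on the arms, with a median width of 426.5 bp and a median score of 66.4, against 575.5 bp and 50.1 for the 564 on the arms. Without the run of 9 on U described next, the other 17 had medians of 432 bp and 54.5, and 2 of them scored above 100. Over all 26, scores above 100 made up 26.9% (interval 11.6 to 47.8) and on the arms 7.45% (interval 5.42 to 9.93), and all of those on scaffolds lay on U. The 3 on 3RHet scored between 40.8 and 49.6, near the lower edge of the list. None of the 26 was 800 bp wide or wider. The mitochondrial genome had a single peak of 330 bp (17155 to 17484), with a score of 48.3.

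The group with the most narrow peaks lay on U. There, 9 narrow peaks with no wide peak among them stood within 16.03 kb (5288379 to 5304410), separated by gaps of 350 to 2939 bp. Their widths ran from 258 to 732 bp with a median of 376 bp, and together they covered 25.7% of the stretch. From the left end their scores were 105, 58.6, 48.5, 132, 225, 146, 163, 79.4 and 56.9. The high values lay in the middle and at the left end, and 5 of the 9 exceeded 100. The other 8 narrow peaks on U had scores from 43.9 to 206, with a median of 64.7 and 2 above 100.

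A different arrangement was seen near the base of 2R. Here 2 groups of peaks, from 2138677 to 2229815 and from 2313056 to 2348689, held 13 narrow peaks among 18 wide ones, with 83.2 kb between the groups that held no peak. They include the highest-scoring peak of the list, a wide one with a score of 414. The 13 narrow peaks had a median width of 554 bp and a median score of 71.7, beside a median of 123 for the 18 wide peaks around them and 49.6 for the 551 narrow peaks elsewhere on the 5 arms. Of the 13, 7 lay within 1 kb of a wide peak and 1 scored above 100, a peak of 634 bp (2161220 to 2161853, score 109) that ended 165 bp before a wide peak. Without the narrow and wide peaks of these 2 groups, the 2 to 4 Mb stretch of 2R still held 18 narrow and 6 wide peaks.

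**Figure D4:**
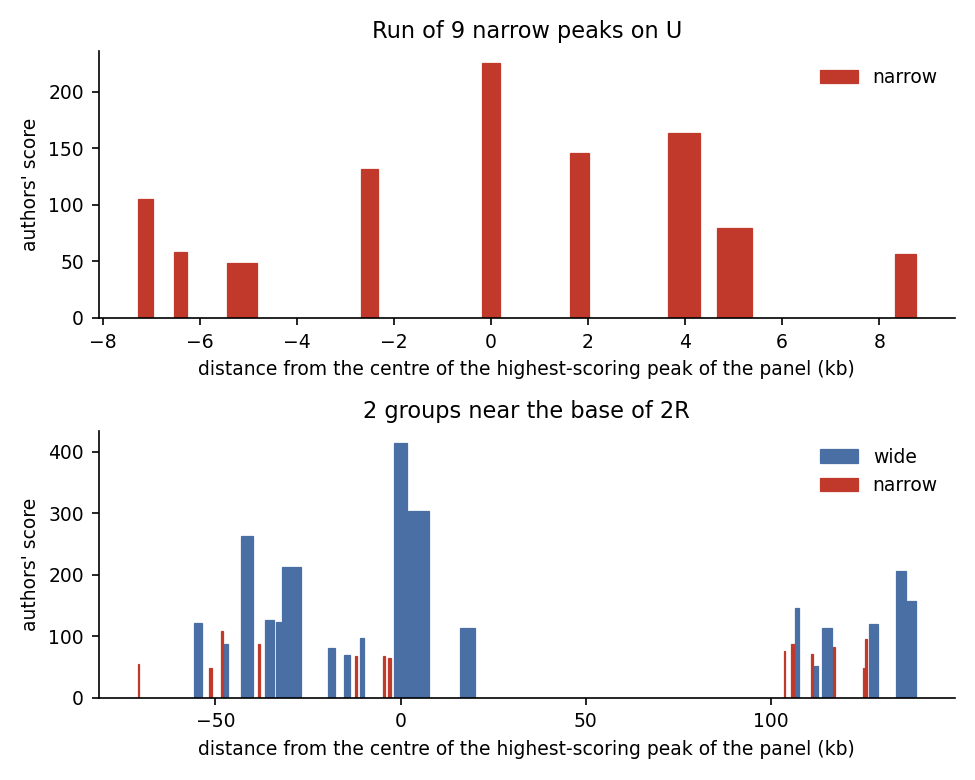
Authors' score (height) of each peak against its distance in kb from the centre of the highest-scoring peak of the panel, with bar width drawn to the width of the peak, narrow in red and wide in blue. The upper panel shows the 9 narrow peaks on U, and the lower panel the 13 narrow and 18 wide peaks of the 2 groups near the base of 2R, where the narrow bars stand lower than most of the wide bars.

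Narrow peaks often stood alone at distances of up to 20 kb, whereas 484 of 595 (81.3%) had another peak within 100 kb. The median distance to the nearest other peak, edge to edge, was 27865 bp (594 peaks that share a scaffold with another), with quartiles at 7583 and 77915 bp. For the 342 wide peaks the median was 26542 bp. With peaks joined into a group when 20 kb or less separated neighbours, 339 of the 595 narrow peaks (57.0%, interval 52.9 to 61.0) stood alone, and 188 of the 342 wide peaks did (55.0%, interval 49.5 to 60.3). At 5 kb, 479 narrow peaks (80.5%, interval 77.1 to 83.6) and 264 wide peaks (77.2%, interval 72.4 to 81.5) stood alone. The intervals of both classes overlap at either distance, which does not show that the shares are equal, and no difference was tested.

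**Figure D5:**
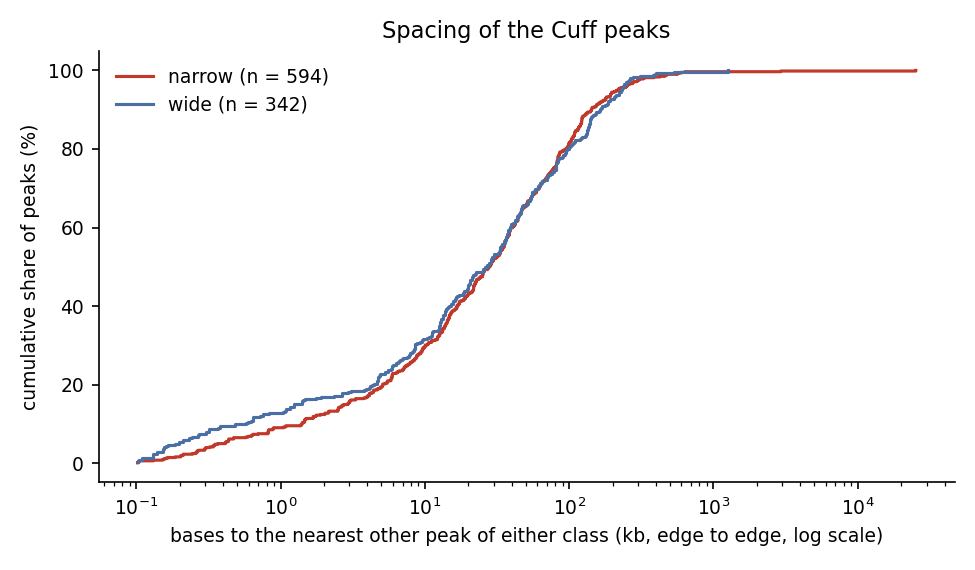
Cumulative share of peaks in percent (vertical axis) by distance in kb to the nearest other peak of either class (horizontal log axis, edge to edge), for 594 narrow peaks in red and 342 wide peaks in blue. The curves run close together, with medians of 27865 and 26542 bp, and they lie farthest apart at short distances, with 12.9% of wide and 9.08% of narrow peaks having a neighbour within 1 kb.

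Narrow peaks that did have neighbours kept company with both classes. At 20 kb, 143 narrow peaks formed 62 groups with no wide peak, of which 51 were pairs, 8 had 3 members, 2 had 4 and 1 was the run of 9 on U. The other 113 grouped narrow peaks shared 84 groups with at least 1 wide peak. The nearest neighbour was itself narrow for 387 of 594 narrow peaks (65.2%) and for 213 of 342 wide peaks (62.3%), both near the 63.5% of the list that is narrow.

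Each arm had a group with the most narrow peaks, though on 2L, 3L and X a longer group tied with the one given. On 2R it was the first of the groups near its base, with 7 narrow peaks. On 3R 4 narrow peaks lay within 30.4 kb (7415486 to 7445879) with scores from 45.8 to 72.5. On 2L 3 lay within 18.3 kb (9894024 to 9912326; scores 45.6 to 63.7), on 3L 3 within 20.04 kb (4102514 to 4122551; scores 44.9 to 77.1), and on X 3 within 19.1 kb together with 1 wide peak (10662049 to 10681111; narrow scores 41.5 to 54.9). None of these 4 held a score above 100. The longer tied groups did on 2L (5070792 to 5108788, narrow scores up to 121) and X (10223444 to 10260338, up to 138). The tied group on 3L (8393181 to 8418314) did not, with scores up to 47.8. At the other extreme, the most isolated narrow peaks on the arms were 636 kb from any other on X (21882255 to 21882903, score 50.6), 599 kb on 2R (120294 to 120925, score 47.4) and 570 kb on 3L (5919652 to 5920296, score 54.9). Larger distances, 25299 kb on Uextra (27346847 to 27347197, score 61.4) and 2923 kb on U (1091970 to 1092463, score 44.7), cross strung-together sequence.

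Few peaks of either class bordered a wide one, and the share was lower for narrow peaks than for wide ones. A wide peak lay within 1 kb of 22 narrow peaks (3.70%, interval 2.33 to 5.54) and within 5 kb of 48 (8.07%, interval 6.01 to 10.6), while for 324 it was over 100 kb away. Of the 342 wide peaks, 25 had another wide peak within 1 kb (7.31%, interval 4.79 to 10.6). Within 5 kb, 46 of them did (13.5%, interval 10.02 to 17.5). The intervals of both classes overlap at either distance, which does not show that the shares are equal, and the difference was not tested. The 22 narrow peaks within 1 kb of a wide one had a median score of 69.2, in a range from 40.8 to 206. Of these, 7 belong to the 2 groups on 2R. Of the 595 narrow peaks, 588 shared a scaffold with a wide peak. Among them, those with a wide peak within 5 kb had a median score of 57.1 (48 peaks). Those at 5 to 100 kb had a median score of 49.2 (216 peaks) and those farther away one of 50.1 (324 peaks). Median widths in the same order were 565.5, 573.5 and 578 bp. The nearest of these classes also includes peaks of the 2 groups on 2R. When peaks within 1000 bp of each other were joined, 25 narrow peaks merged into regions with a wide peak, 29 merged with other narrow peaks into 14 regions, and 541 remained narrow as they were.

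The peak names carry running numbers that rise with position on every scaffold and reach 43036, so the 937 deposited peaks correspond to 2.18% of that number. Whether each number was once a separate call is not stated. On the 5 arms between 1.86% and 2.75% of the numbers spanned by the first and last peak are in the list. On U it is 29.0%, 20 of 69, of which 17 are narrow, on Uextra 18.8%, 6 of 32, on 3RHet 3.88%, 4 of 103, and on chromosome 4 it is 1.27%, 5 of 394. Both ends of each span are kept peaks by definition, and numbers between 1 scaffold and the next are left out. Shares on scaffolds with few peaks may therefore be too high. The run of 9 on U spans 13 numbers. An immediate neighbour by number was also kept for 63 narrow peaks (10.6%, interval 8.23 to 13.3) and for 51 wide peaks (14.9%, interval 11.3 to 19.1).

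Identical scores occurred in both classes. Of the narrow peaks, 115 of 595 shared their exact score with another peak of either class (19.3%, interval 16.2 to 22.7), as did 28 of 342 wide peaks (8.19%, interval 5.51 to 11.6) and 143 of all 937 (15.3%). The most frequent value, 41.5, was held by 14 peaks, 13 of them narrow, with widths from 328 to 1562 bp. A score of 52.5 was shared by 7 narrow peaks.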

How the data were processed

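The peak list is 1 deposited file with chromosome, start, end, name and a score per peak. Per the submitters' processing notes reads were handled on build dm3, and MACS2 2.0.10.20130501, bedtools, Bowtie2 2.0.0 and cutadapt 1.2.1 are among the tools listed. The names in the deposited file mention MACS2, idr, Cuff and controls, with a tag for replicates 1 to 3. Whether the tag covers the ChIP, the controls or both is not stated, nor is how the libraries were combined. The score is the authors' own value, its statistic is not stated, and the list is sorted by it. It served to describe and rank peaks within this list. Starts were moved from counting from 0 to counting from 1. Widths, distances, groups and exact binomial intervals were computed with Python 3.11.15, pandas 2.3.3 and scipy 1.17.1. Distance and grouping steps were tested on simulated peaks. A peak was named if it was among the 10 highest by score, the 3 narrowest, the 5 on each side of the limit (6 below it, by a tie), the 3 most isolated, or in the group with most narrow peaks of its arm, with ties going to the shorter group. The groups on 2R and on U, the mitochondrial peak and further isolated peaks on the arms were singled out after their values were seen. The members and the choices of what to describe were made with earlier results of these data known. Alternatives covered the width limit, merging, the score, and the way distance is taken. The RNA and Pol2 gene tables were not used.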

Additional observations from a re-analysis of the deposited data

How the results depend on the processing

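Other settings changed the counts as follows. A limit of 500 bp gave 237 narrow peaks, and put 6.75% of them on U, Uextra or 3RHet. The share within 5 kb of another peak (19.5%) became 9.08% at 1 kb and 43.0% at 20 kb, as the distances themselves imply. The other 10 alternatives stayed within 1.5 times the count or inside the 95% interval of the reported value: the number of narrow peaks was 820 with a limit of 1500 bp and 541 after merging, the scaffold share lay between 2.90% and 6.04%, and the median distance between 25168 and 28596 bp. Leaving out the run of 9 on U, an alternative chosen after seeing the data, gave the lowest scaffold share, 2.90%. Leaving out U and Uextra, also chosen after seeing the data, gave a median distance of 28510 bp and 18.0% within 5 kb. No paired analysis was possible because the list holds no value per library. For the same reason leaving out a replicate, another normalization and count tests were not run. Placement against genes, gene starts, and the RNA or Pol2 change of genes at peaks was not run, since no annotation of dm3 was used. What depth limits cannot be said without the depth of the libraries.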
